A study of Mus musculus with 19 samples.

Results

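The mitochondrial chromosome of the mouse carries a small set of messenger RNAs for the respiratory chain, and 10 of them were followed here in differentiating muscle cells. They were taken by name from the annotation of the deposited transcripts: mt-Nd1, mt-Nd2, mt-Nd4, mt-Nd5 and mt-Nd6 of complex I, mt-Cytb of complex III, mt-Co1, mt-Co2 and mt-Co3 of complex IV, and mt-Atp6 of the ATP synthase. These are 10 of the 35598 genes in the files, and all 10 passed the filter on low counts. Of the 10, 9 are encoded as heavy-strand transcripts and 1, mt-Nd6, as a light-strand transcript.

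Mitochondrial DNA is copied into RNA by its own polymerase as long transcripts that run around most of the circle, one from each strand, and these are cut at the transfer RNAs that punctuate the genes. The messengers of one strand therefore start out in the same precursor, and their amounts are afterwards also set by how fast each is degraded. Their products are core subunits of complexes whose other subunits are encoded in the nucleus, and muscle cells are known to make more of these complexes as they differentiate.

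The cells were primary mouse myoblasts, the muscle precursors that fuse into multinucleate myotubes, carrying either a wild-type (WT) or a Glud1KO genotype label. Glud1 encodes glutamate dehydrogenase, a mitochondrial enzyme that converts glutamate to 2-oxoglutarate. Both genotypes were sampled as proliferating myoblasts at 24 h (3 WT and 3 KO-labelled libraries), as differentiated myotubes at 48 h (3 WT and 2 KO-labelled) and as fused myotubes at 72 h (4 WT and 4 KO-labelled). No further treatment or allele was given, and the labels call the samples biological replicates without saying whether they came from separate animals or cultures, so p-values measure the spread between these samples.

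The 19 libraries held 16168131 to 30742634 estimated counts. Glud1 itself ranged from 184 to 192 CPM (counts scaled to library size with TMM factors) in WT and from 185 to 190 in KO-labelled myoblasts, from 102 to 112 against 96.6 to 103 in differentiated myotubes, and from 131 to 141 against 130.2 to 139 in fused myotubes. It did not separate the labels in edgeR's test (adjusted p = 0.849, 0.193 and 0.748), and with the deposited effective lengths as an offset it was lower in KO-labelled libraries at all 3 stages (log2 fold change -0.26, -0.31 and -0.34, adjusted p = 0.000709, 0.000245 and 1.58e-05). Which part of the gene a deletion would remove was not given, so differences below are between libraries as labelled. The summed level of 4 myoblast markers was 1548 to 1681 CPM at 24 h for WT, against 1411 to 1488 for KO-labelled myoblasts, 3664 to 3961 and 3679 to 4056 in differentiated, and 5459 to 6057 and 5503 to 5914 in fused myotubes. This sum, of Pax7, Myod1, Myf5 and Des, was thus lowest at 24 h, where it was lower in KO-labelled libraries without overlap. The sum does not show which of the 4 markers carries either difference. Of other cell types, 4 fibroblast markers summed to at most 3.40 CPM, 3 endothelial markers to at most 1.08, 4 macrophage markers to at most 1.78 and 3 Schwann cell markers to at most 2.70. The summed level of 5 markers of differentiating muscle ranged over 376 to 423 CPM in WT myoblasts and over 223 to 256 in the KO-labelled ones, 19070.4 to 22693 and 19835 to 21763 in differentiated myotubes, and 16152 to 18078 and 15266 to 16003 in fused myotubes. It was lower in KO-labelled libraries without overlap at 24 h and 72 h, and the part of either list in the differences below was not tested.

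The ends of the messengers are shown because poly(A) capture was used to make the libraries and because the only overlap of the light-strand gene with a heavy-strand gene lies there. In 3 of the 10 genes the coding sequence stops at a single T, which a poly(A) tail must extend to a stop codon, and in the other 7 the stop codon is encoded. Below are the last 30 bases of the 3 genes with an unfinished stop and of mt-Co1 with a finished one (GRCm38, plus strand, chrM:9361-9390, chrM:11515-11544, chrM:15259-15288 and chrM:6843-6872, all coding exon), with the encoded stop or its first base in capitals.
mt-Co3: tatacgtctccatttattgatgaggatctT
mt-Nd4: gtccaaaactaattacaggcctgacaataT
mt-Cytb: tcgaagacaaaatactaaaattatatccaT
mt-Co1: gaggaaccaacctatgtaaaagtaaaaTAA
The genes mt-Nd5 (plus strand, chrM:11742-13565) and mt-Nd6 (minus strand, chrM:13552-14070) converge and share 14 bases, which are in capitals in the 2 ends that follow, chrM:13536-13565 read on the plus strand and chrM:13552-13581 read on the minus strand.
mt-Nd5: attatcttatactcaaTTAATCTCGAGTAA
mt-Nd6: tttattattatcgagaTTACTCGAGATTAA
In its transcript mt-Nd6 had 28.1% G and 6.0% C, whereas the 9 heavy-strand genes had 8.0% to 16.1% G and 23.8% to 27.7% C. The strand setting of the counting was not given in the sources used here, so reads from the 14 shared bases, and any antisense RNA, cannot be told apart from those of the gene on the other strand. Nuclear copies with at least 80% identity over 100 bases were annotated for 9 of the 10 genes (none for mt-Nd1), and for mt-Atp6, mt-Co1, mt-Co2, mt-Co3 and mt-Nd4 a copy was at least 99.8% identical over the aligned bases; these copies were not analysed here.

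Per transcript length, the heavy-strand genes stood within 1 order of magnitude of each other and mt-Nd6 stood far below. In WT myoblasts the mean level in TPM, a length-corrected level, was 5721 ± 804 for mt-Atp6, 5522 ± 600 for mt-Co2, 5511 ± 647 for mt-Co1 and 4928 ± 438 for mt-Co3 (SD, n = 3), and these 4 overlapped their neighbours in the order. Below them came mt-Cytb (3075 ± 348 TPM) and mt-Nd1 (2874 ± 371), then mt-Nd2 (1639 ± 225) and mt-Nd4 (1427 ± 192), then mt-Nd5 (930.0 ± 118) and last mt-Nd6 (11.3 ± 1.37). The subunits of complex IV and the ATP synthase were thus ahead of those of complex I in these libraries, with gaps between the 4 leading genes, the next pair, the next pair and mt-Nd5 that exceeded the ranges of the replicates.

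At later stages mt-Co1, the catalytic core of cytochrome c oxidase, moved to the head of the order. Its TPM was 18581 ± 1724 in WT and 21789 ± 994 in KO-labelled differentiated myotubes, with no overlap with the next gene, mt-Atp6. In fused myotubes it was 15083 ± 1002 in WT, again clear of the next gene, and 13603 ± 1111 in KO-labelled libraries, where its range overlapped that of mt-Co3 (11417 ± 781). The ratio of the highest to the lowest heavy-strand mean was 6.15 in WT and 7.39 in KO-labelled myoblasts, 3.98 and 3.63 in differentiated myotubes, and 5.03 and 5.21 in fused myotubes. The lowest of the 9 was mt-Nd5 in all 6 groups, and mt-Nd6 lay below it in all 6, with fused-myotube levels of 45.1 ± 15.1 TPM for WT and 51.2 ± 9.10 TPM for KO-labelled cells (n = 4 each).

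**Figure D1:**
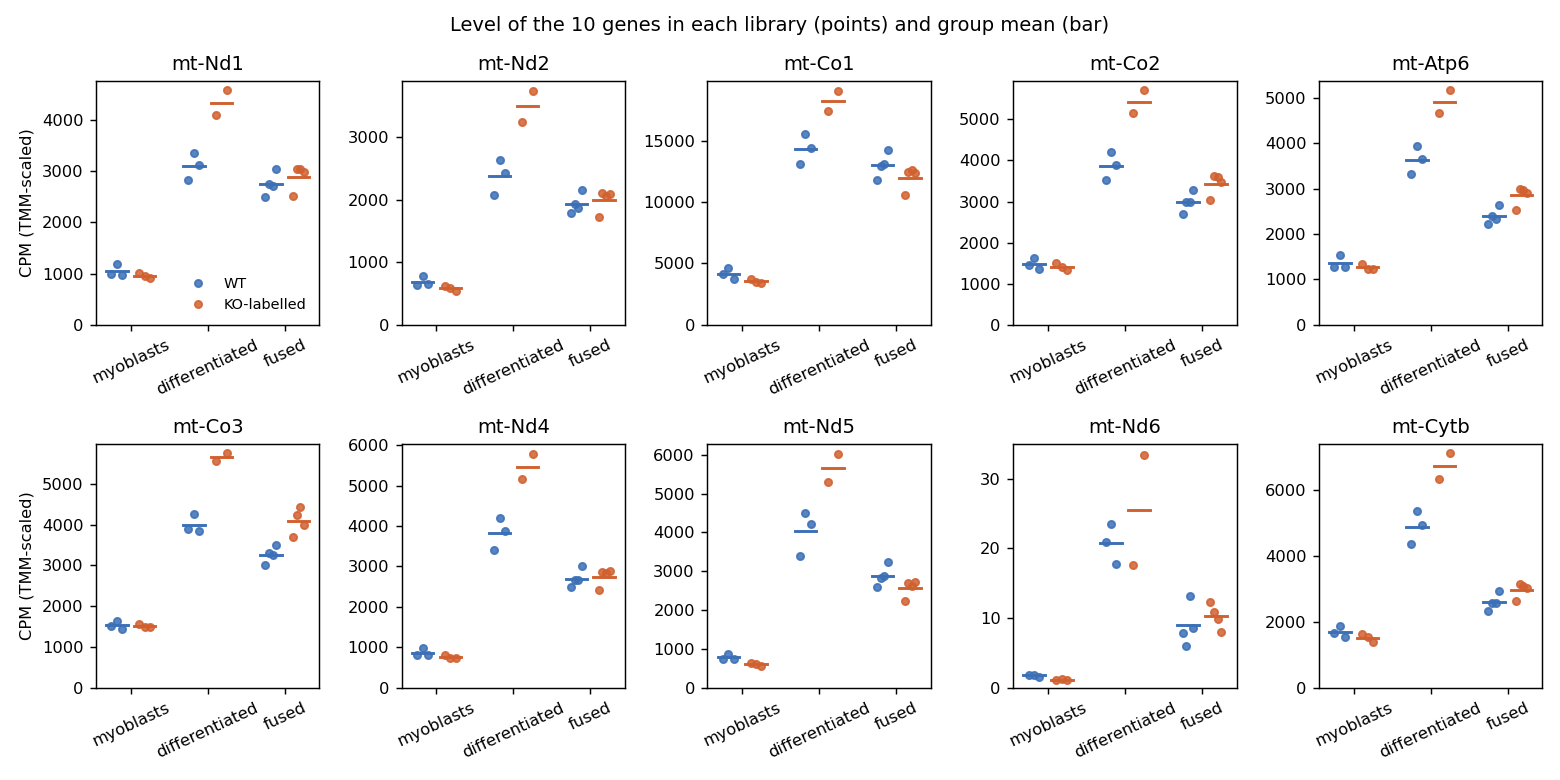
Level of each of the 10 genes in CPM (linear axis from 0) in every library, by stage, with WT in blue and KO-labelled libraries in orange; bars are group means. For all 10 genes the myoblast libraries lie below all others, and for the 9 heavy-strand genes the 2 KO-labelled differentiated libraries lie above the 3 WT ones.

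Between myoblasts and differentiated myotubes all 10 messengers rose in WT and all 10 rose in KO-labelled libraries. In WT the 9 heavy-strand genes rose by 1.38 to 2.38 on the log2 scale (2.61-fold to 5.20-fold), and mt-Nd6 by 3.57 ± 0.24 (SE), or 11.9-fold. The corresponding rises in KO-labelled libraries were 1.91 to 3.23 (3.75-fold to 9.41-fold), and 4.49 ± 0.27 or 22.4-fold for mt-Nd6. All 20 changes had an adjusted p of at most 1.48e-13 in edgeR's quasi-likelihood test. Across the 15123 genes tested, 42.4% were called higher in WT (85% in either direction) and 41.3% in KO-labelled libraries (83.7%), and the median log2 change of all genes was 0.0194 and -0.00382.

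Among the complex I messengers, mt-Nd5, a proton-pumping membrane subunit, rose most of the heavy-strand genes. Its level was 729.8, 874 and 728 CPM in the 3 WT myoblast libraries and 3404, 4509.9 and 4212 CPM in the 3 WT differentiated libraries. In KO-labelled libraries it was 636, 600.2 and 566 CPM in myoblasts and 5288 and 6013 CPM in differentiated myotubes. No differentiated library came near a myoblast library, and the rise was 2.38 ± 0.10 in WT (adjusted p = 1.24e-18) and 3.23 ± 0.10 in KO-labelled libraries (adjusted p = 7.33e-21, edgeR). The next in order were mt-Nd4 (2.15 ± 0.08 and 2.85 ± 0.09), mt-Nd2 (1.80 ± 0.09 and 2.58 ± 0.10) and mt-Nd1 (1.57 ± 0.08 and 2.18 ± 0.09), which are membrane subunits of the same complex.

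The complex IV messengers parted from one another. For mt-Co1 the WT libraries had 4127, 4591 and 3722 CPM as myoblasts and 13077, 15585 and 14388 as differentiated myotubes. The rise of mt-Co1 was 1.79 ± 0.08, close to that of mt-Nd2. The other subunits of the catalytic core rose less, mt-Co2, which takes up electrons from cytochrome c, by 1.38 ± 0.08 and mt-Co3 by 1.38 ± 0.06, and mt-Atp6, part of the proton channel of the ATP synthase, by 1.42 ± 0.08. For mt-Cytb, the haem-carrying subunit of complex III, the levels were 1659.6, 1869.7 and 1543 CPM and then 4354, 5359.9 and 4959, a rise of 1.53 ± 0.09 (log2, WT). Ranked by size of the rise, the 10 genes stood in the same order in WT and in KO-labelled libraries, which share no library: mt-Co3, mt-Co2, mt-Atp6, mt-Cytb, mt-Nd1, mt-Co1, mt-Nd2, mt-Nd4, mt-Nd5 and mt-Nd6.

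Within the heavy-strand counts, which need no scaling between libraries, the same shift was seen. The share of mt-Nd5 went from 5.72% to 9.14% in WT and from 4.95% to 9.42% in KO-labelled libraries, and that of mt-Co3 from 11.3% to 9.09% and from 12.5% to 9.46%. Tested in edgeR with the summed heavy-strand count as library size, mt-Nd5 rose relative to the heavy-strand total, of which it is part, by 0.68 ± 0.09 in WT (adjusted p = 6.16e-10) and 0.93 ± 0.10 in KO-labelled libraries (adjusted p = 4.18e-13), and mt-Co3 fell by 0.32 ± 0.09 (adjusted p = 0.00111) and by 0.40 ± 0.10 (adjusted p = 0.000291). The genes with the smaller rises have short coding sequences (684 bases for mt-Co2, 681 for mt-Atp6 and 784 for mt-Co3) and mt-Nd5 and mt-Nd4 long ones (1824 and 1378). Of the other genes, mt-Co1 (1545 bases) and mt-Nd2 (1038) rose alike in WT within their SE, as did mt-Cytb (1144) and mt-Nd1 (957). In KO-labelled libraries mt-Nd2 rose by 0.28 ± 0.10 and mt-Co1 by 0.07 ± 0.09 relative to the heavy-strand total. The light-strand gene mt-Nd6 (519) rose most. The effective length of mt-Nd5, which also reflects fragment length, was 1334 to 1388 bases in WT myoblasts and 1252 to 1275 in WT differentiated myotubes; with effective lengths as an offset the rises of mt-Nd5 and mt-Co1 in WT were 2.47 and 1.90, and the part of transcript length in the order was not tested.

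At 48 h the KO-labelled libraries held more of all 9 heavy-strand messengers than the WT libraries. The differences ran from 0.35 ± 0.09 for mt-Co1 to 0.55 ± 0.10 for mt-Nd2 on the log2 scale, which is 1.27-fold to 1.47-fold, with adjusted p of 0.0033 or below (edgeR). For these 9 of the 10 genes the call was higher, beside 11% of all genes called higher and 25.2% called in either direction. For all 9 the 2 KO-labelled libraries lay above the 3 WT libraries, and the median difference of the 9 was 0.48 against -0.01 over all genes. The 9 moved together from library to library, so they are not 9 independent observations. The share of all genes separated in this way was not computed. When libraries were scaled to the nuclear-encoded subunits the 9 differences were 0.18 (mt-Co1) to 0.39 (mt-Nd2), and 8 of them were called. The shares of all genes above are for TMM scaling only.

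The complex I subunit mt-Nd2 had 2072, 2636 and 2432 CPM in WT and 3247 and 3740.0 CPM in KO-labelled differentiated myotubes (0.55 ± 0.10, adjusted p = 9.56e-05, edgeR). The complex IV subunit mt-Co3 had 3886, 4253 and 3847 CPM in WT and 5556 and 5776 in KO-labelled libraries (0.50 ± 0.07, adjusted p = 2.92e-06). The libraries of the 2 labels were separated in both cases, and mt-Co3 had the lowest adjusted p of the 10. For mt-Co1, which had 13077, 15585 and 14388 CPM in WT and 17453 and 19076 in KO-labelled libraries, the difference was 0.35 ± 0.09 and its adjusted p of 0.0033 became 0.0714 without KO-labelled replicate 2 (the 1 remaining library is then assumed to vary like the other groups, as in every such value at 48 h) and 0.156 when libraries were scaled to the nuclear-encoded subunits. The light-strand messenger mt-Nd6 had 20.9, 23.4 and 17.7 CPM in WT and 17.6 and 33.4 in KO-labelled libraries, so the 2 KO-labelled libraries lay on either side of the WT group (0.31 ± 0.19, adjusted p = 0.25, edgeR; 0.70 with an adjusted p of 0.00804 without KO-labelled replicate 1, and -0.22 without replicate 2).

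**Figure D2:**
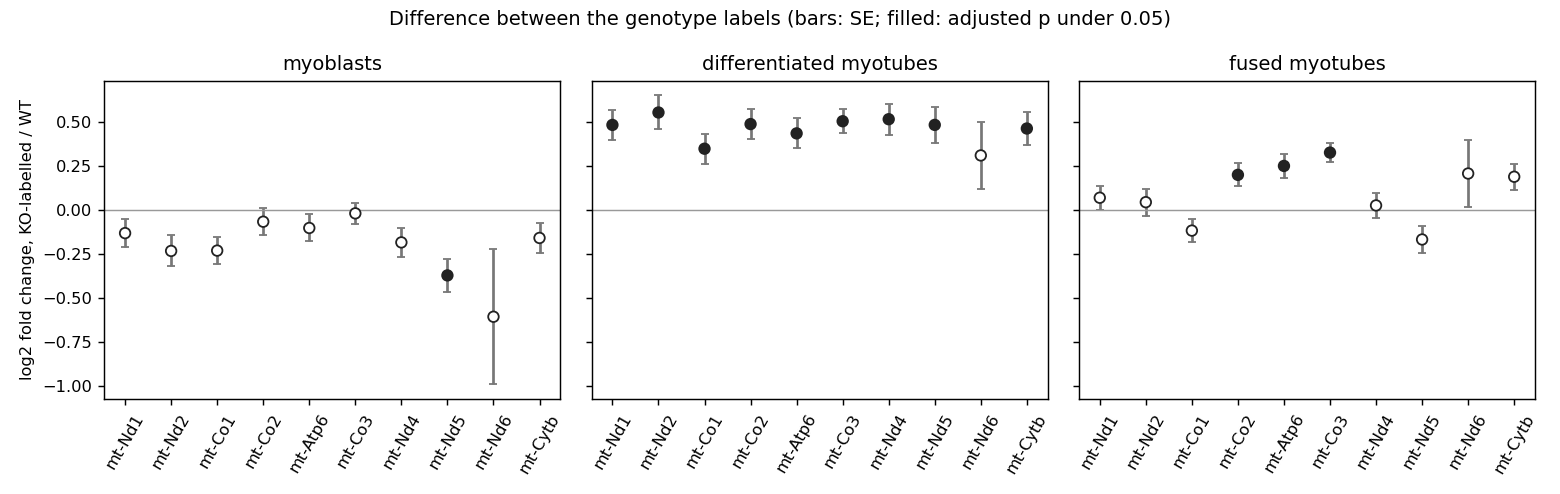
Log2 fold change of KO-labelled against WT libraries (points, with SE bars) for the 10 genes in chromosomal order at the 3 stages; filled points had an adjusted p under 0.05 in edgeR. In differentiated myotubes the 9 heavy-strand genes lie between 0.35 and 0.55, while in fused myotubes they spread from -0.17 (mt-Nd5) to 0.33 (mt-Co3).

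In myoblasts 1 of the 10 genes was called as different between the labels. This was mt-Nd5, which was lower in KO-labelled libraries (636, 600.2 and 566 CPM) than in WT libraries (729.8, 874 and 728 CPM), without overlap. The difference was -0.37 ± 0.09 (adjusted p = 0.00838, edgeR); 6.69% of all genes were called lower and 11.6% called in either direction. The remaining heavy-strand genes had differences from -0.23 (mt-Nd2, adjusted p = 0.0897) to -0.02 (mt-Co3, adjusted p = 0.895), and mt-Nd6 had -0.61 ± 0.38 (adjusted p = 0.349). The libraries of mt-Nd2, mt-Nd4 and mt-Nd6 did not overlap either, the KO-labelled ones being lower. Under several alternatives more than 1 of the 10 genes was called. The call on mt-Nd5 was lost without WT replicate 2 (adjusted p = 0.0742), without KO-labelled replicate 3 (adjusted p = 0.0538) and with effective lengths as an offset (adjusted p = 0.0622). For mt-Co1 the difference passed without WT myoblast replicate 3 (-0.30, adjusted p = 0.0235) and, at an adjusted p of 0.0384 to 0.0429, without any 1 of 5 libraries of later stages (edgeR).

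Whether the genotype difference changed with stage was tested directly. From myoblasts to differentiated myotubes the difference of KO-labelled minus WT moved upward for all 9 heavy-strand genes, by 0.52 ± 0.09 (mt-Co3) to 0.85 ± 0.14 (mt-Nd5) on the log2 scale, with adjusted p of 0.00121 or below (edgeR, interaction of label and stage). Among all genes 7.78% had such an upward interaction and 19.1% one in either direction. For mt-Nd6 the interaction was 0.92 ± 0.43 (adjusted p = 0.144). It was 1.30 without KO-labelled differentiated replicate 1 (adjusted p = 0.0148), 0.38 without replicate 2 (adjusted p = 0.584), and passed without a filter on low counts (adjusted p = 0.000224, edgeR).

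From differentiated to fused myotubes 9 of the 10 genes fell in WT and all 10 fell in KO-labelled libraries; of all genes tested, 37.7% and 34.4% were called lower (75.1% and 70.2% in either direction, edgeR). The fall in WT ran from 0.17 ± 0.07 for mt-Nd1 (log2 change -0.17, adjusted p = 0.0359) to 0.91 ± 0.08 for mt-Cytb (log2 change -0.91, adjusted p = 4.87e-11) among the heavy-strand genes that passed. The exception, mt-Co1, had 13077, 15585 and 14388 CPM in differentiated and 11779, 12959, 13079 and 14202 CPM in fused WT libraries, which overlap (-0.14 ± 0.07, adjusted p = 0.0775); it passed without WT differentiated replicate 1 or WT fused replicate 4 and, with values from -0.13 to -0.21, under 6 other settings of scaling, filter, libraries or block. The WT libraries of mt-Nd1 and mt-Nd2 overlapped too, and the call on mt-Nd1 was lost without any 1 of 5 libraries (WT differentiated 2 or 3, WT fused 1, 2 or 3; adjusted p from 0.0562 to 0.207). Scaled to the nuclear-encoded subunits, which rose in this interval, all 10 were called lower in both labels, and in WT mt-Nd1 had -1.06 and mt-Co1 -1.03. That scaling lowers every gene by the rise of those subunits. The shares of all genes above are for TMM scaling and cannot be set beside this count. The 48 h libraries enter this comparison and the one from 24 h to 48 h, so the 2 changes are not independent.

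Cytochrome b fell most of the heavy-strand genes. The level of mt-Cytb was 4354, 5359.9 and 4959 CPM in WT differentiated and 2328, 2565, 2579.5 and 2946 CPM in WT fused myotubes. In KO-labelled libraries it was 6347 and 7133 CPM and then 2619, 3142, 3093 and 3021 CPM, a change of -1.18 ± 0.09 (adjusted p = 2.29e-12, edgeR). Fused and differentiated libraries were separated in both labels. Its share of the heavy-strand counts was 12.4% in WT myoblasts, 11.1% in differentiated and 7.54% in fused myotubes, against 12.5%, 11.2% and 8.35% in KO-labelled libraries.

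The KO-labelled libraries came down further for part of complex I and for mt-Co1. For mt-Nd5, 3404, 4509.9 and 4212 CPM in WT differentiated myotubes became 2597, 2813, 2877 and 3241 CPM in fused ones, a change of -0.49 ± 0.08. In KO-labelled libraries 5288 and 6013 CPM became 2222, 2686, 2629.6 and 2727 CPM, a change of -1.14 ± 0.09. The interaction of label and stage was below 0 for all 10 genes and called for 5, mt-Nd1 (-0.41 ± 0.11), mt-Nd2 (-0.51 ± 0.12), mt-Co1 (-0.47 ± 0.11), mt-Nd4 (-0.49 ± 0.11) and mt-Nd5 (-0.65 ± 0.13), with adjusted p from 0.000845 to 0.0108 (edgeR); 6.53% of all genes had such a call and 14.8% one in either direction. For mt-Co2, mt-Atp6, mt-Co3, mt-Cytb and mt-Nd6 it was -0.29 to -0.10 and did not pass. Under alternatives mt-Co2 passed without WT differentiated replicate 2, without WT fused replicate 1, with a replicate block and without a filter on low counts, and mt-Cytb passed without that filter. The count of 5 was 3 without KO-labelled differentiated replicate 2 and 1 with libraries scaled to the nuclear-encoded subunits.

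**Figure D3:**
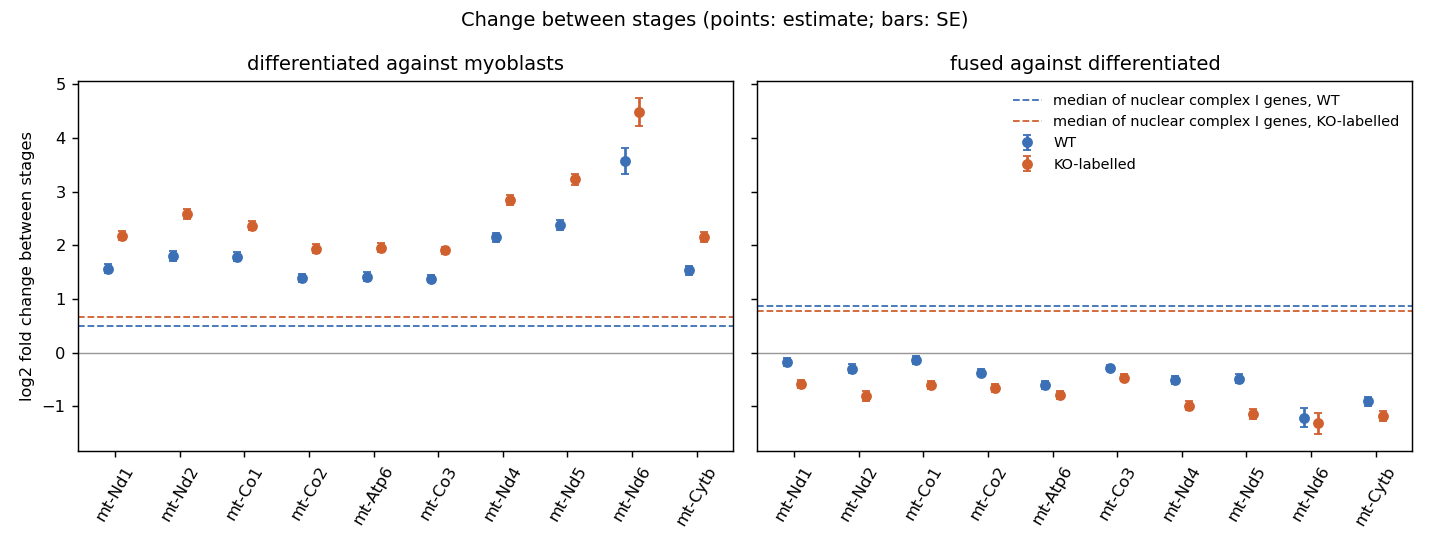
Log2 change between stages (points, with SE bars) for the 10 genes in chromosomal order, WT in blue and KO-labelled in orange; dashed lines are the median change of 36 nuclear-encoded complex I genes. From 24 h to 48 h all points lie above the dashed lines, and from 48 h to 72 h all lie below 0 while both dashed lines lie above it.

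At the end of the course all 10 messengers were above their myoblast level. From myoblasts to fused myotubes all 10 rose in WT, by 0.62 ± 0.08 (mt-Cytb) to 1.89 ± 0.09 (mt-Nd5) for heavy-strand genes and by 2.35 ± 0.26 for mt-Nd6, and all 10 rose in KO-labelled libraries, by 0.97 ± 0.08 (mt-Cytb) to 2.09 ± 0.09 (mt-Nd5) and by 3.17 ± 0.27 (mt-Nd6), each with an adjusted p of at most 5.35e-08 in edgeR. Of all genes, 42.2% and 42.7% were called higher (85.5% and 87.2% in either direction). When libraries were scaled to nuclear-encoded subunits of the respiratory chain, mt-Co2, mt-Atp6, mt-Co3 and mt-Cytb were called lower in WT and mt-Cytb in KO-labelled libraries. There mt-Co2 (-0.029, adjusted p = 0.739) and mt-Atp6 (-0.14, adjusted p = 0.128) were near 0 and not called (edgeR). Under that scaling 5 of the 10 genes were called higher in WT and 6 in KO-labelled libraries. The shares of all genes above are for TMM scaling and cannot be set beside these counts. The interaction was above 0 for all 10 genes and called for 3, mt-Atp6 (0.35 ± 0.10, adjusted p = 0.0248), mt-Co3 (0.35 ± 0.08, adjusted p = 0.00603) and mt-Cytb (0.35 ± 0.11, adjusted p = 0.0454), beside 5.75% of all genes (10.3% in either direction). The other 6 heavy-strand genes had 0.11 to 0.28 and mt-Nd6 0.81 ± 0.43, with adjusted p from 0.0938 to 0.567. Without a filter on low counts 9 were called, and without any 1 of 5 libraries (WT myoblast 2, WT fused 1, KO-labelled myoblast 2 or 3, KO-labelled fused 2) only mt-Co3 was called. The call on mt-Cytb was also lost without any 1 of 5 others (WT myoblast 1, WT fused 2 or 3, KO-labelled fused 3 or 4), and mt-Co2 was added without WT fused 4 or KO-labelled fused 1.

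In fused myotubes 3 of the 10 messengers differed between the labels. mt-Co3 was higher in KO-labelled libraries (3702, 4248, 4436 and 3997 CPM) than in WT libraries (3018, 3295, 3264 and 3493 CPM), without overlap (0.33 ± 0.05, adjusted p = 0.000109, edgeR). mt-Atp6 had 2526, 2994, 2972 and 2901 CPM against 2212, 2391, 2331 and 2644 (0.25 ± 0.07, adjusted p = 0.0118), and mt-Co2 had 3036, 3611, 3598 and 3474 CPM against 2703, 2978, 2989 and 3278 (0.20 ± 0.07, adjusted p = 0.0433). In these last 2 genes the lowest KO-labelled library, replicate 1, lay within the WT range. These were the 3 of the 10 genes called, all higher, beside 6.32% of all genes called higher and 13% called in either direction; without WT replicate 1 only mt-Co3 was called. The call on mt-Co2 was also lost without any 1 of 6 others (WT fused 2 or 3, KO-labelled fused 2, 3 or 4, KO-labelled myoblast 2) and in DESeq2 (adjusted p = 0.0832). With effective lengths as an offset, and when scaled to the nuclear-encoded subunits, mt-Co3 alone was called, mt-Co2 having adjusted p of 0.132 and 0.241 and mt-Atp6 of 0.0678 and 0.111 (edgeR). The difference was -0.17 ± 0.08 for mt-Nd5 (adjusted p = 0.183) and -0.12 ± 0.07 for mt-Co1 (adjusted p = 0.289), and that of mt-Nd1, mt-Nd2 and mt-Nd4 was 0.03 to 0.07 with adjusted p of at least 0.572.

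Taken as shares of the heavy-strand counts, 6 of the 9 messengers separated the labels at 24 h, 5 at 48 h and 7 at 72 h. The share of mt-Co1 was lower in KO-labelled libraries at all 3 stages (differences of -1.41, -2.09 and -3.92 percentage points), and that of mt-Co2 was higher at all 3, by 0.741, 0.270 and 1.003. By counts those of mt-Nd1 were also higher at each (0.167, 0.190 and 0.154). Of the others, again by counts, mt-Atp6, mt-Co3 and mt-Nd5 separated the labels at 24 h and 72 h, mt-Nd2 and mt-Nd4 at 48 h and mt-Cytb at 72 h. By deposited TPM the difference of mt-Nd1 at 24 h was -0.032 with overlap. There mt-Atp6 separated the labels at 48 h and not at 24 h, and mt-Nd2 and mt-Nd4 separated them at 24 h too. At 24 h and 48 h no exact permutation p can fall below 0.1, and the adjusted p was 0.15 for each gene separated by counts. In edgeR with the heavy-strand total as library size none of the 9 was called at 24 h or 48 h. The lowest adjusted p was 0.141 (mt-Nd5) at 24 h and 0.335 (mt-Nd2) at 48 h. The fused libraries, with 4 in each label, are given one by one. mt-Co1 made up 37.5, 37.7, 38.1 and 37.4% of the heavy-strand counts in the 4 WT libraries and 33.8, 33.5, 33.8 and 33.9% in the 4 KO-labelled ones. mt-Co3 made up 9.61, 9.59, 9.5 and 9.19% in WT and 11.8, 11.4, 11.9 and 10.98% in KO-labelled libraries. Every KO-labelled library thus had less mt-Co1 and more mt-Co3 in its mixture than every WT library. Shares of mt-Nd5 were 8.27, 8.19, 8.37 and 8.53% against 7.08, 7.23, 7.06 and 7.49%, and those of mt-Atp6 were 7.04, 6.96, 6.79 and 6.96% against 8.05, 8.06, 7.98 and 7.97%.

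In fused myotubes the same separation held for mt-Nd1 (7.91% to 8.02% in WT, 8.02% to 8.17% in KO-labelled libraries, without overlap before rounding), mt-Co2 (8.61% to 8.70% and 9.55% to 9.72%) and mt-Cytb (7.41% to 7.75% and 8.30% to 8.46%), while mt-Nd2 and mt-Nd4 overlapped. The exact two-sided permutation p was 0.0286 for each gene separated at 72 h, the smallest that 4 against 4 libraries can give, and 0.11 after adjustment over the 27 shares compared (9 genes at 3 stages). This comparison of shares was chosen after the values had been seen, and because the 9 shares of a library add up to 100% they are not independent. In edgeR with the heavy-strand total as library size, mt-Co3 was called (0.28 ± 0.08, adjusted p = 0.0276), and mt-Atp6 (0.21 ± 0.08, adjusted p = 0.168), mt-Nd5 (-0.21 ± 0.08, adjusted p = 0.179) and mt-Co1 (-0.16 ± 0.07, adjusted p = 0.343) were not. Nor were mt-Co2, mt-Cytb and mt-Nd1 (adjusted p = 0.373, 0.415 and 0.937). The spread in this fit is shared across all genes under that scaling and is not that of the shares alone. The SD of the mt-Co1 share was 0.300 percentage points in WT and 0.147 in KO-labelled libraries, so a share not called here can still separate the labels. Computed from the deposited TPM, mt-Co1 held 23.48% in WT and 20.01% in KO-labelled libraries and mt-Co3 14.4% and 16.8%, again without overlap. In contrast mt-Nd1, 0.154 percentage points higher by counts, differed by -0.307 percentage points by TPM, and mt-Nd4, which overlapped by counts, differed by -0.336 without overlap. The genes with larger shares in KO-labelled libraries are 681 to 1144 bases long and mt-Co1 and mt-Nd5 1545 and 1824; the effective length of mt-Nd5 in fused libraries was 1282 to 1300.1 bases for WT, overlapping the 1277 to 1311 bases of KO-labelled libraries, and the part of transcript length was not tested.

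**Figure D4:**
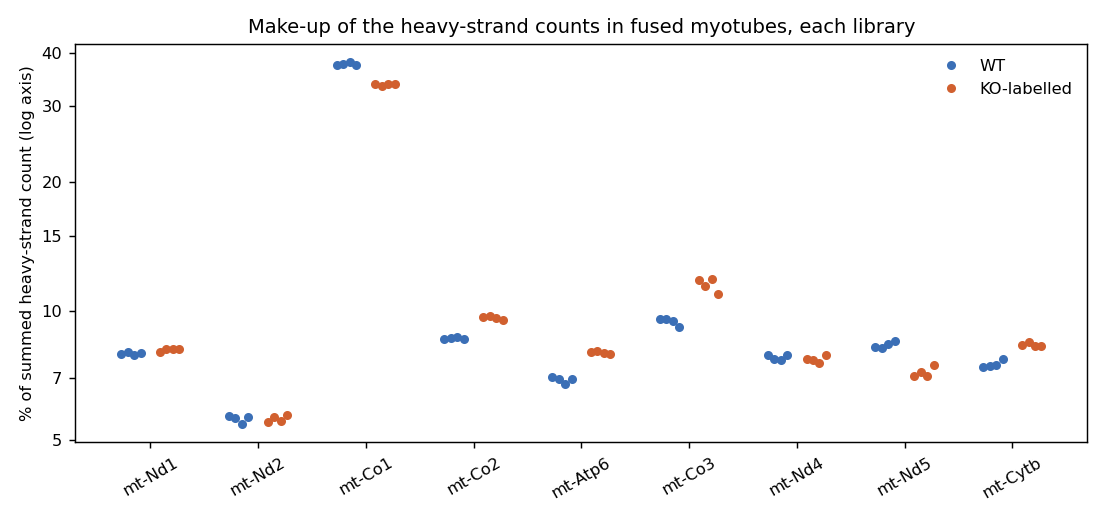
Share of each heavy-strand gene in the summed heavy-strand count (percent, log axis) in the 4 WT (blue) and 4 KO-labelled (orange) fused libraries, 1 point per library. The points of the labels are well apart for mt-Co1, mt-Co2, mt-Atp6, mt-Co3, mt-Nd5 and mt-Cytb, nearly touch for mt-Nd1, and overlap for mt-Nd2 and mt-Nd4.

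Summed over the 9 heavy-strand genes, mitochondrial messengers made up 1.56% ± 0.164 of all counts in WT and 1.40% ± 0.0534 in KO-labelled myoblasts (SD, n = 3 each). In differentiated myotubes they were 3.89%, 4.64% and 4.22% of the WT libraries and 5.36% and 5.75% of the KO-labelled ones. In fused myotubes the share was 3.18% ± 0.214 in WT and 3.27% ± 0.248 in KO-labelled libraries (n = 4 each). Every KO-labelled differentiated library was above every WT one (difference 1.31 percentage points, exact permutation p = 0.1, the smallest that 2 against 3 allow, adjusted 0.129), and in fused myotubes the labels overlapped (exact permutation p = 0.657). Because whole cultures were measured, a larger number of cells rich in mitochondrial RNA and more such RNA per cell cannot be told apart.

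Within a group the heavy-strand messengers moved together from library to library. In WT myoblasts, for example, replicate 2 was the highest library for all 9 genes, as was replicate 4 in WT fused myotubes, and in KO-labelled fused myotubes replicate 1 was the lowest for all 9. The median SD of their log2 levels within a group was 0.07 to 0.15, and that of each gene's log2 ratio to the heavy-strand total 0.01 to 0.04. KO-labelled fused replicate 1 had 2.89% of its counts in these genes against 3.38% to 3.41% in the other 3 libraries of its group; without it, 4 of the 10 genes were called higher in KO-labelled fused myotubes, mt-Cytb being added.

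The light-strand messenger mt-Nd6, a membrane subunit of complex I, was set against the heavy-strand genes as a ratio within each library. It was read by few counts, 34 to 637 per library against 349218 to 1260302 for the 9 heavy-strand genes together. Its level was 1.79, 1.86 and 1.57 CPM in WT myoblasts, 20.9, 23.4 and 17.7 in differentiated and 7.9, 5.96, 13.2 and 8.61 in fused myotubes. In KO-labelled libraries it was 1.03, 1.28 and 1.11 CPM in myoblasts, 17.6 and 33.4 in differentiated and 12.2, 10.8, 9.88 and 7.93 in fused myotubes. Both series peaked at 48 h, and no differentiated or fused library overlapped a myoblast library. In mammals the ND6 messenger is known for a short or missing poly(A) tail, and these libraries were made by poly(A) capture; the part of tail length in its level was not tested.

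The log2 ratio of mt-Nd6 to the heavy-strand total was -12.84, -12.99 and -12.96 in WT myoblasts and -10.90, -11.00 and -11.29 in WT differentiated myotubes, a rise of 1.87 or 3.65-fold. In the WT fused libraries it was -11.96, -12.49, -11.35 and -12.11, a drop of -0.91 from 48 h that left it 0.95 above myoblasts. By counts the 3 WT stages did not overlap, with the fused libraries between the others and more scattered (SD 0.48 against 0.08 and 0.20). By deposited TPM the WT fused and differentiated libraries overlapped (change -0.81, exact permutation p = 0.0857), while those of myoblasts stayed apart from both.

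KO-labelled libraries were also lowest in ratio as myoblasts and highest by mean at 48 h, though those of 48 h and 72 h overlapped. Their log2 ratio was -13.60, -13.20 and -13.35 in myoblasts, -11.66 and -10.88 in differentiated and -11.32, -11.74, -11.88 and -12.17 in fused myotubes. The change was 2.11 to 48 h (4.33-fold), -0.51 from 48 h to 72 h with overlap, and 1.61 from 24 h to 72 h. Exact two-sided permutation p-values for the 6 stage comparisons were 0.0286 to 0.267, against a smallest possible 0.1 for 3 against 3 or 2 against 3 libraries, 0.0667 for 4 against 2 and 0.0286 for 4 against 3, and after adjustment over 9 comparisons none was below 0.15. In edgeR with the heavy-strand total as library size, which shares the estimate of spread across genes, all 6 passed: 1.87 ± 0.21 (adjusted p = 1.23e-12), -0.86 (adjusted p = 3.4e-06) and 1.00 (adjusted p = 1.44e-05) in WT, and 2.17 ± 0.23 (adjusted p = 2.43e-13), -0.54 ± 0.18 (adjusted p = 0.00523) and 1.63 (adjusted p = 5.56e-10) in KO-labelled libraries. Of these, the KO-labelled drop from 48 h to 72 h rested on 1 library: without KO-labelled differentiated replicate 2 it was -0.098 (adjusted p = 0.708) and without replicate 1 it was -0.87 (adjusted p = 0.000161, edgeR). The other 5 changes passed without any 1 library of the groups compared.

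Between the labels the ratio was not resolved at any stage. In myoblasts the 3 KO-labelled values lay below the 3 WT values (difference -0.45, exact permutation p = 0.1, the smallest possible; adjusted p = 0.253 in edgeR), on 34 to 51 mt-Nd6 counts per library. In differentiated and fused myotubes the groups overlapped, with differences of -0.21 and 0.20 and adjusted p of 0.454 and 0.753 (edgeR). Without KO-labelled differentiated replicate 1 the difference at 48 h was 0.18 and without replicate 2 it was -0.59, or -0.60 with an adjusted p of 0.042 in edgeR, where the spread of the 1 remaining library is taken from the other groups.

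**Figure D5:**
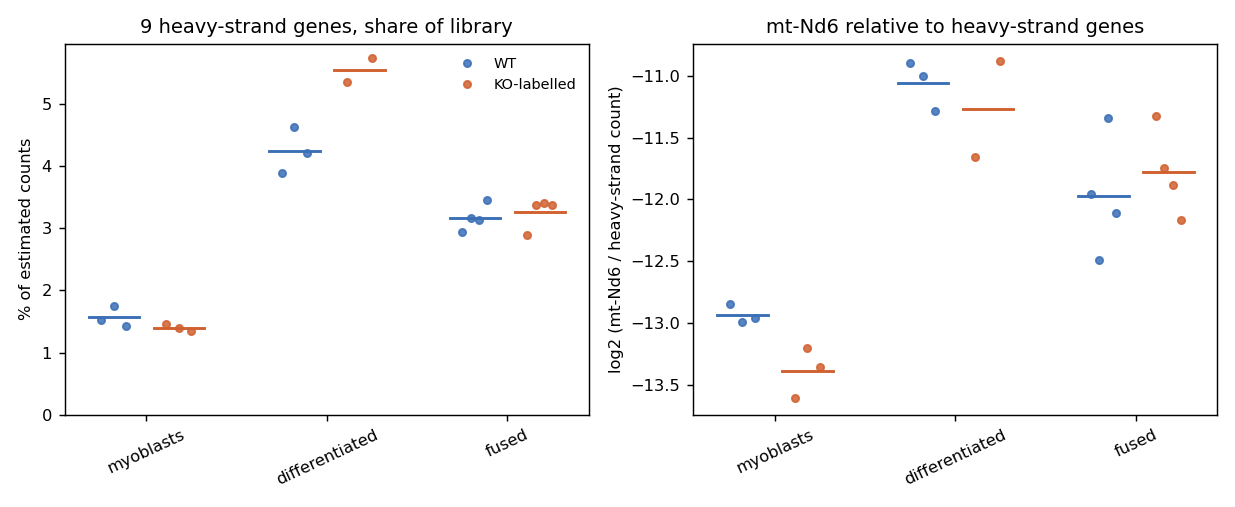
Left, share of each library's counts in the 9 heavy-strand genes (percent, linear axis from 0); right, log2 ratio of mt-Nd6 to the summed heavy-strand count; points are libraries, horizontal bars group means, WT in blue and KO-labelled in orange. Both measures are lowest in myoblasts, and at 48 h the 2 KO-labelled libraries lie above the WT libraries in the share and on either side of them in the ratio.

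The nuclear-encoded partners of these subunits rose on a different course. From 48 h to 72 h, when 9 of the 10 mitochondrial messengers fell in WT, 36 of 36 nuclear-encoded complex I genes rose (median 0.88 on the log2 scale), as did 15 of 15 ATP synthase genes (median 0.87) and 20 of 22 genes of complexes III and IV (median 0.92). The median of all genes was -0.01, and 37.4% of all genes were called higher (edgeR). In KO-labelled libraries the counts were the same, beside 35.8% of all genes called higher, and the medians were 0.78, 0.78 and 0.77. Examples in WT are Ndufv1, which carries the NADH site of complex I, at 143 ± 4.95 CPM and then 369 ± 19.6, and Cox7a1, the muscle form of a complex IV subunit, at 3.56 ± 0.578 and then 38.9 ± 5.04. The 2 complex III and IV genes that fell included Cox6a1, the form found outside striated muscle, from 131 ± 4.73 to 80.3 ± 5.31 CPM. From 24 h to 48 h the nuclear-encoded genes had risen by medians of 0.49, 0.42 and 0.42 in WT, below the 1.38 of the least changed of the 10 messengers.

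At 48 h, where the heavy-strand messengers were higher in KO-labelled libraries, 23 of 36 nuclear-encoded complex I genes were higher too (median 0.18), with 14 of 22 of complexes III and IV (median 0.18) and 10 of 15 of the ATP synthase (median 0.16), and none was lower. The leading examples were Ndufb4 (49.99 ± 2.03 CPM in WT and 64.4 ± 5.44 in KO-labelled libraries), Cox6a2, the striated-muscle form of a complex IV subunit (59.9 ± 1.51 and 87.2 ± 4.01), and Atp5e (104 ± 8.40 and 132 ± 10.3). In fused myotubes 4, 4 and 3 of these genes were higher and none lower, beside 6.32% of all genes called higher. In myoblasts 1 was higher and 2 were lower, beside 4.86% and 6.69% of all genes. These lists were drawn up with earlier results of these data known, and beside 11% of all genes called higher at 48 h their counts are given as a description.

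Genes for copying and transcribing mitochondrial DNA moved in both directions across stages. Of 17 such genes 5 were higher and none lower in KO-labelled differentiated myotubes, where 11% of all genes were called higher. The largest difference was that of Primpol, a primase and polymerase, at 24.1 ± 0.416 CPM against 19.7 ± 0.573 in WT (0.29 ± 0.09, adjusted p = 0.012, edgeR). At 24 h 2 and at 72 h 1 of the 17 were higher and none lower, beside 4.86% and 6.32% of all genes called higher. Across stages in WT 7 rose and 5 fell from 24 h to 48 h, and 11 rose and 3 fell from 48 h to 72 h, when 9 of the 10 mitochondrial messengers fell. Of all genes 42.4% rose and 42.6% fell in the first interval, and 37.4% rose and 37.7% fell in the second. Of 21 genes for processing, stability and tails of mitochondrial RNA, 4 rose and 12 fell from 24 h to 48 h in WT, and 18 rose and 1 fell from 48 h to 72 h, beside the same shares of all genes. Pnpt1, an RNA-degrading exonuclease, went from 39.7 ± 1.22 to 19.5 ± 1.33 CPM in the first interval (-1.03 ± 0.06), and Ptcd2, an RNA-binding protein, from 26.4 ± 1.46 to 54.6 ± 2.02 CPM in the second (1.05 ± 0.05). Between the labels 3 of the 21 were higher and none lower at 24 h, 4 were higher and 2 lower at 48 h, and 1 was lower at 72 h, beside 11.6%, 25.2% and 13% of all genes called in either direction. The gene called in fused myotubes was Lrpprc, which stabilises mitochondrial messengers (189 ± 4.92 CPM in WT and 174 ± 4.88 in KO-labelled libraries, -0.12 ± 0.03, adjusted p = 0.0102).

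Of the 3 other protein-coding genes of the chromosome, mt-Atp8 and mt-Nd4l overlap their neighbours mt-Atp6 and mt-Nd4 by 43 and 7 bases and sit in messengers shared with them. Their change from 24 h to 48 h in WT was 1.35 ± 0.09 and 1.99 ± 0.09, beside 1.42 and 2.15 for those neighbours. mt-Nd3, a membrane subunit of complex I between mt-Co3 and mt-Nd4l, did otherwise. It had 164, 173 and 168 CPM in WT myoblasts, 244, 262 and 239.8 in differentiated and 305, 326, 294 and 321 in fused myotubes, so it rose by 0.57 ± 0.05 and then by a further 0.32 ± 0.05 (adjusted p = 1.3e-06, edgeR). In KO-labelled libraries it rose in the second interval as well (0.22 ± 0.06, adjusted p = 0.000968), and it was the only 1 of the 13 protein-coding mitochondrial genes that rose after 48 h. The 2 ribosomal RNA genes were not analysed here.

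The genes whose log2 CPM over the 19 libraries was most like the mean of the 9 heavy-strand genes, among 8850 genes at 10 CPM or more outside the mitochondrial chromosome, were A930003A15Rik, 2900097C17Rik, Zhx1, Arhgef26 and Tmem189 (Pearson r of 0.99 each). For mt-Nd6 they were A930003A15Rik, C1qtnf3, Sorbs2, Myog and Ppfia4 (r of 0.98 each). All points share the same libraries and the same 3 stages, and r is given as a description.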

How the data were processed

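RNA of 19 libraries was measured after poly(A) selection (Illumina TruSeq mRNA, per the labels' protocols). Per the submitters' processing notes bcl2fastq 2.20, fastp 0.20.0, kallisto 0.46.1 and edgeR 3.36 were used with build GRCm38.p6. The deposited files give, per the file headers, estimated counts, TPM and an effective length for 121843 transcripts. Transcripts were matched to GENCODE M21 (GRCm38), and the 825 without a match (0.255% to 0.507% of counts) were left out. Estimated counts were summed per gene and rounded. All genes were fitted at once with edgeR 4.0.16 in R 4.3.3 (quasi-likelihood, TMM, filterByExpr, 6 group coefficients), with Benjamini-Hochberg adjustment over 15123 genes and a threshold of 0.05. The method was tested on simulated data. Ratios and shares were compared with exact permutation tests. The deposited TPM served for levels between genes.

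All 10 genes are named; genes of other lists are named as the called gene with the largest rise or fall of a list and comparison, and like genes as the 5 with the highest correlation. Members and lists were chosen with earlier results of these data known. Replicates differed by more than counting noise (chi-square per degree of freedom 2.07 to 7.06), so none was counted as a copy; such noise covers counting error only. Alternatives were other scalings, filters, tests and library sets. The names of the deposited files carry KO for both genotypes, with an added T for those labelled Glud1KO, and the sources used here do not say what these letters mean. The genotype labels were followed, and every comparison of WT with KO-labelled libraries rests on them.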

Additional observations from a re-analysis of the deposited data

Results flagged for a closer look

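In KO-labelled fused myotubes, 1 library of 4 (replicate 1, the lowest) stood apart from the others for several of the messengers. Its gap to the next library took up 0.883 of the group's whole range for mt-Nd1, 0.885 for mt-Nd2, 0.882 for mt-Co1, 0.884 for mt-Nd4 and 0.942 for the summed share of the 9 heavy-strand genes, above Dixon's 95% critical value for 4 samples. The share of mt-Nd1 within the heavy-strand counts of that group was marked in the same way (0.846). Of 42 such checks these 6 passed; chance gives about 1 in 20, and the genes of a library are not independent checks.

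The difference between KO-labelled and WT libraries depended on stage (interaction of label and stage in edgeR, adjusted p under 0.05). From myoblasts to differentiated myotubes the value of KO-labelled minus WT moved up by 0.61 for mt-Nd1, 0.79 for mt-Nd2, 0.58 for mt-Co1, 0.55 for mt-Co2, 0.54 for mt-Atp6, 0.52 for mt-Co3, 0.70 for mt-Nd4, 0.85 for mt-Nd5 and 0.62 for mt-Cytb on the log2 scale. From differentiated to fused myotubes it changed by -0.41 for mt-Nd1, -0.51 for mt-Nd2, -0.47 for mt-Co1, -0.49 for mt-Nd4 and -0.65 for mt-Nd5. From myoblasts to fused myotubes it moved up by 0.35 for each of mt-Atp6, mt-Co3 and mt-Cytb. None of these genes was called between the labels in myoblasts, and mt-Cytb was not called in fused myotubes either.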

How the results depend on the processing

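Counts of the 10 genes called, in either direction, were within 1.5 times of those reported under every alternative for KO-labelled against WT differentiated myotubes, for the 6 stage comparisons and for the interaction up to 48 h; leaving out 1 library at a time gave 8 to 10, 8 to 10 (WT fused against differentiated), 10 (the other stage comparisons) and 9 to 10. The 1 call in myoblasts became 2 with library size alone, with DESeq2 size factors or with a mean of at least 1 CPM, 6 without a filter, 5 with only the libraries compared, 3 with a replicate block, 0 with effective lengths as an offset, and 0 to 2 without 1 library. The 3 calls in fused myotubes became 1 when scaled to nuclear-encoded subunits, 5 without a filter, 1 with the offset and 1 to 4 without 1 library. The 5 interactions from 48 h to 72 h became 1 under that scaling and 3 to 6 without 1 library. The 3 from 24 h to 72 h became 1 under that scaling, 9 without a filter, 1 with the offset and 1 to 4 without 1 library. The causes were not tested.

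Scaling to the nuclear-encoded subunits turned the change from 24 h to 72 h into a called fall in WT for mt-Co2 (-0.28), mt-Atp6 (-0.47), mt-Co3 (-0.20) and mt-Cytb (-0.66), and in KO-labelled libraries for mt-Cytb (-0.33). There 5 of the 10 genes in WT and 6 in KO-labelled libraries were called higher, against 10 and 10. The calls on mt-Nd1 in WT (0.11, adjusted p = 0.241) and on mt-Co2 (-0.029, adjusted p = 0.739), mt-Atp6 (-0.14, adjusted p = 0.128) and mt-Co3 (0.13, adjusted p = 0.0613) in KO-labelled libraries were lost (edgeR). From 48 h to 72 h it made the falls larger by over 1.5 times for mt-Nd1 (-1.06 against -0.17 in WT) and mt-Co1 (-1.03 against -0.14), among others. This scaling puts the median of all genes at -1.29 and -1.34 from 24 h to 72 h, and library size alone puts it at -0.33 and -0.35. The mt-Nd6 ratio passed in edgeR for stage changes of 1.87, -0.86 and 1.00 in WT and 2.17, -0.54 and 1.63 in KO-labelled libraries. By TPM the share of the heavy-strand genes differed by 2.52 and 0.373 percentage points between labels at 48 h and 72 h, by 6.16, -2.90 and 3.26 between WT stages and by 8.99, -5.04 and 3.95 between KO-labelled stages. Same-numbered replicates did not deviate together (r from -0.06 to 0.05 over 41 pairs), so the numbers do not pair the libraries and the replicate block is given only as an alternative. Adding the counts of nuclear copies was not run, and whether reads from copies up to 100% identical were counted in the mitochondrial genes was not tested. Leaving out libraries from the edgeR test of the mt-Nd6 ratio, and all comparisons of shares, were chosen after seeing the data. Few mt-Nd6 counts per library limit every statement on that gene.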

Other observations

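Gm20594, a gene on chromosome 6 annotated as protein-coding and picked after its values had been seen, was lowest in myoblasts like the mitochondrial messengers. It had at most 21.7 CPM in the 3 WT myoblast libraries, 100.7 to 119 in the 3 differentiated and 127 to 136 in the 4 fused libraries. In KO-labelled libraries the ranges were 14.1 to 16.7 (n = 3), 134 to 136 (n = 2) and 109 to 128 (n = 4). It was higher in KO-labelled than in WT differentiated myotubes (0.32 ± 0.07, adjusted p = 0.00164, edgeR), and from 48 h to 72 h it rose in WT (0.28 ± 0.06, adjusted p = 0.000216) and fell in KO-labelled libraries (log2 change -0.18 ± 0.07, adjusted p = 0.0293).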
